A study of Mus musculus with 55 samples.

Results

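The genes described here are 30 genes of the pancreatic acinar cell, among 47937 genes counted in 16 bulk RNA-seq libraries of isolated mouse islets. They were listed by name for their known role. Their values were no criterion, but earlier results of these data were known when the list was made. It holds 10 serine proteases, 2 carboxypeptidases, 6 lipases and lipase partners, 3 genes for a nuclease and amylases, 5 granule and secreted proteins, and 4 transcription factors. All 30 could be found by identifier, and all 30 passed the filter on low counts.

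The libraries came from hand-picked whole islets of male C57B6/J mice that were wild type, heterozygous for Eed, or Eed -/- (βEedKO), at 8 or 25 weeks of age. Eed is a core subunit of PRC2, the complex that writes H3K27me3, and the floxed gene was removed by RIP-cre, a transgene driven by an insulin promoter, which targets β cells. There were 3 libraries each of wild type, heterozygous and βEedKO islets at 8 weeks, and 3, 2 and 2 at 25 weeks. Per the methods a library could come from a single mouse or a pair, and the 25-week βEedKO libraries came from larger pools. Whether the control mice carried the Cre is not given in the sources used here. The total count ranged from 4645393 to 22925359 reads per library. The targeted gene, Eed, had 19.3 to 33.1 CPM (reads of the gene relative to the size of its library, scaled by TMM factors) in the wild-type libraries, 16.3 to 20.5 in the heterozygous ones and 13.4 to 15.6 in the βEedKO ones. The islet label was borne out by the insulin genes Ins1 and Ins2, which took 9.4 to 18.9% of counts in 14 libraries, but 0.891 and 2.21% in the βEedKO libraries at 25 weeks.

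Acinar cells make and store the zymogens and enzymes of pancreatic juice and surround the islets, which are endocrine. Their genes are switched on by a trimeric factor built of PTF1A, a class A bHLH partner and RBPJL, together with NR5A2, and MIST1 (the product of Bhlha15) shapes the secretory apparatus. The trimer is known to read an E-box, CANNTG, and a TC box, TTTCCC, placed close to each other in enzyme promoters.

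For 24 of the 30 genes a start site was found in the RefSeq promoter table used here (GRCm38.p6). An E-box lay in the 250 bases before the start in 18 of these 24 (75.0%), against 66.2% of all 32851 promoters in the table. A TC box, read on either strand as TTTCCC or GGGAAA, lay there in 6 (25.0%), against 21.9% of all promoters. Both letters within 40 bases of each other were held by the same number, 6 (25.0%), against 6.61% of all promoters. These 6 stretches are shown because they hold both sets of letters within that distance, in any order and with the TC box on either strand. Each reads 5′ to 3′ on the gene's own strand, upstream of the RefSeq start site, and capitals mark the E-box and the TC box. For Cela2a that site is 141826005. The gene annotation used for the states starts it at 141826160, so that this stretch lies within the annotated gene.
Cela1 (chr15:100688002-100688041, minus strand): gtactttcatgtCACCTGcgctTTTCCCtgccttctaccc
Ctrb1 (chr8:111691188-111691227, minus strand): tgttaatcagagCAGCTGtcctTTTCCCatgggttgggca
Cpa1 (chr6:30639168-30639216, plus strand): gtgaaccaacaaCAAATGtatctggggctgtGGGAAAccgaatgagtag
Cel (chr2:28563451-28563501, minus strand): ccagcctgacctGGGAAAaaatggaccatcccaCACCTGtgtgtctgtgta
Cela2a (chr4:141826072-141826136, minus strand): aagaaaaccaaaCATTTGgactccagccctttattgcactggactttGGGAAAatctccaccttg
Prss2 (chr6:41521609-41521683, plus strand): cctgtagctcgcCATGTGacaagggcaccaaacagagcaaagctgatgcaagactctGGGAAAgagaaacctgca

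In Cela1 and Ctrb1 the E-box came first and 4 bases separated it from the TC box, with the boxes beginning at -109 and -99 from the start site in Cela1 and at -205 and -195 in Ctrb1. The spacing was 13 bases in Cpa1, 15 in Cel, 29 in Cela2a and 39 in Prss2, with the TC box on the other strand in these 4. A TATAAA stood in 7 of the 24 (29.2%), against 7.59% of all promoters. These are matches of letters and no measure of binding, and binding of PTF1A was not analysed here.

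The first question was how much of each islet library these genes took up. Together they made 4.23, 7.5 and 25.9% of all counts in the wild-type libraries at 8 weeks, 6.63, 9.26 and 20.6% in the heterozygous ones and 3.95, 4.6 and 7.07% in the βEedKO ones. At 25 weeks the shares were 4.99, 12.9 and 27.4% in wild type and 5.61 and 8.76% in heterozygous islets. The 2 βEedKO libraries at that age held both extremes of the whole series, 45.9% in replicate 2 and 2.81% in replicate 3, which is a ratio of 16.3. The ranges of all 6 groups overlapped. The mean ± SD was 12.6 ± 11.7% in wild type (n = 3) and 5.21 ± 1.65% in βEedKO islets (n = 3) at 8 weeks, and 15.1 ± 11.4% (n = 3) and 24.4 ± 30.5% (n = 2) at 25 weeks. In bulk RNA, fewer cells of a type and less RNA per cell cannot be told apart.

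**Figure D1:**
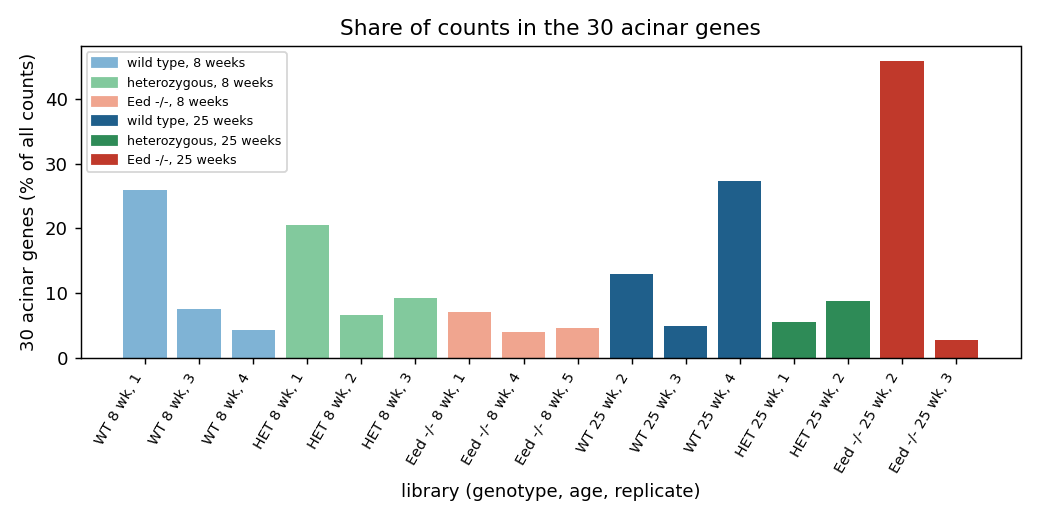
Share of all counts in the 30 acinar genes (y axis, percent) in each of the 16 libraries (x axis: genotype, age, replicate), with bars coloured by group. The tallest and the shortest bar, 45.9 and 2.81%, are the 2 βEedKO libraries at 25 weeks.

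The share is set mostly by the abundant enzymes. In median CPM over the 16 libraries, Ctrb1 (12788), Pnlip (8972) and the elastase Cela1 (6252) were the highest. Scaled to length, the order differed. Per kilobase of exon, the median level over the 16 libraries was highest for Ctrb1, chymotrypsinogen B, at 14565 CPM per kb. The trypsinogen Prss2 followed at 6378, pancreatic lipase Pnlip at 4087, and the elastase Cela2a and the trypsinogen Try4 at 3344 and 3291. The carboxypeptidases Cpa1 and Cpb1 stood at 2710 and 1719 CPM per kb, and colipase, Clps, the protein partner of pancreatic lipase, at 2676. The granule proteins Sycn (syncollin), Zg16 and Gp2 reached 1419, 802 and 323. The transcription factors were far lower on the same scale, at 15.3 for Bhlha15, 3.16 for Rbpjl, 0.912 for Ptf1a and 0.777 for Nr5a2. The lowest enzyme genes were Amy1, the salivary type amylase, at 4.39 and Try10 at 40.5.

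The members moved up and down together from library to library. For each one, log2(CPM + 0.5) was compared over the 16 libraries with the mean of the other 29. The Pearson r was 0.8 or more for 28 of the 30, with a median of 0.985 (median Spearman rho 0.974). The same was true of 155 of 18828 genes tested (0.823%), which are the 28 members and 127 other genes. The median r over all genes was 0.0177. These values are a description, since the genes of a library share its islets, its depth and its scaling. The total count had an r of -0.056 with the mean of the members and the TMM scaling factor one of -0.863, so that the scaling raised the CPM of libraries rich in acinar reads. With library size alone as the scaling, 28 genes again reached 0.8, and the median r was 0.98.

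Taking the group means out did not loosen this. Among deviations from the mean of each genotype and age, the median r was 0.989. The 2 libraries farthest from the median were the 25-week βEedKO replicate 2 and the 8-week wild-type replicate 1. Without them it was 0.976, and 26 genes still reached 0.8.

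**Figure D2:**
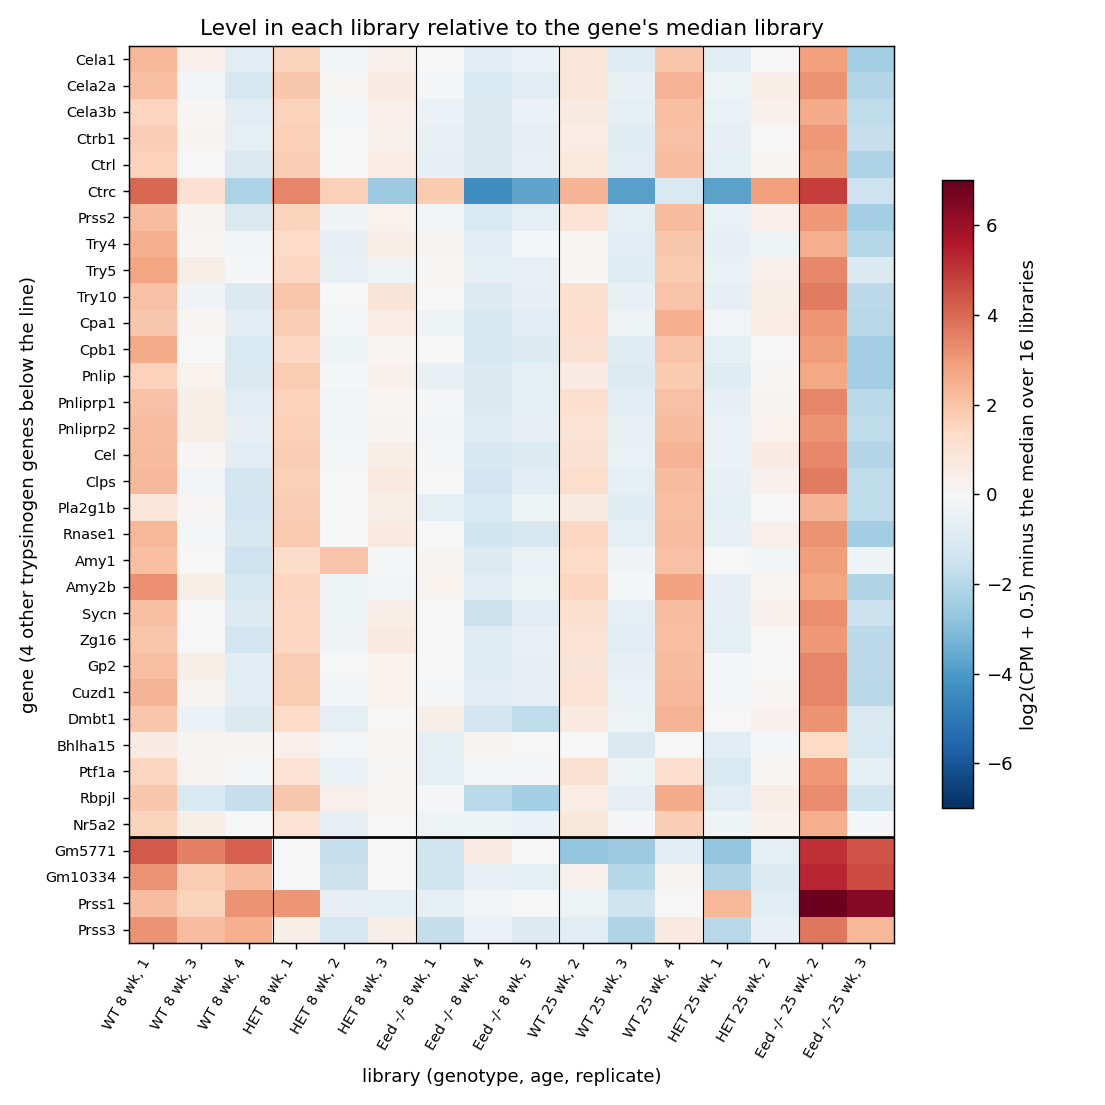
Level of each gene in each library, as log2(CPM + 0.5) minus the gene's median over the 16 libraries (colour), for the 30 acinar genes above the line and 4 further trypsinogen genes below it. Columns change colour as blocks for most acinar genes, while Ctrc, Bhlha15 and the 4 genes below the line break the pattern.

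The secreted proteins show the common pattern at its clearest. Ctrb1 had 42294, 14632 and 8376 CPM in wild-type replicates 1, 3 and 4 at 8 weeks, and 41335, 12327 and 15803 in the heterozygous replicates 1, 2 and 3. In the βEedKO replicates 1, 4 and 5 of that age it had 8947, 6451 and 8695. At 25 weeks it had 18001, 7086 and 53589 CPM in wild-type replicates 2, 3 and 4, and 8515 and 13250 in the heterozygous pair. The βEedKO replicates 2 and 3 had 103492 and 4235. One βEedKO library exceeded all wild-type libraries of its age and the other was under all of them, so the groups overlapped.

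Pnlip, which splits triglycerides, had the same extremes, from 1701 CPM in βEedKO replicate 3 at 25 weeks to 58219 in replicate 2, with a median of 8972. Cpa1 ran between 1224 and 40503 CPM and Sycn between 280 and 7598, with the lowest and highest level in the same 2 libraries. The ratio of the highest to the lowest library was 24.4 for Ctrb1, 34.2 for Pnlip, 33.1 for Cpa1 and 27.1 for Sycn. Over all 30 genes its median was 35.3.

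On the log2 scale most genes changed by about as much as the mean of the others. The slope against that mean had a median of 1.02, and for the 25 secreted proteins other than Ctrc it ran from 0.812 in Amy1 to 1.16 in Rnase1, the pancreatic ribonuclease. The tightest partners were the lipase-related genes Pnliprp1 and Pnliprp2 and the bile salt lipase Cel, with r of 0.994, 0.993 and 0.993. Their differences from the mean of the others varied with an SD of 0.155 to 0.212 on the log2 scale over 16 libraries.

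**Figure D3:**
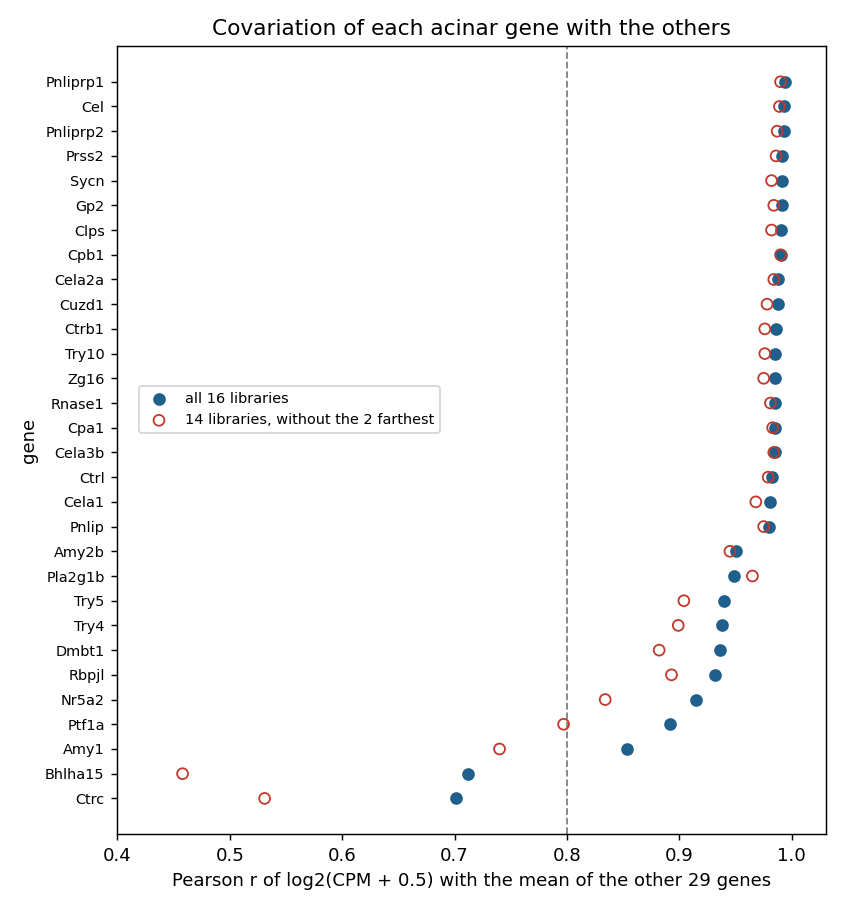
Pearson r of each gene's log2(CPM + 0.5) with the mean of the other 29 acinar genes (x axis), one row per gene, over all 16 libraries (filled) and over 14 libraries without the 2 farthest from the median (open). The dashed line marks 0.8, and Ctrc and Bhlha15 are the 2 filled points to its left, at 0.701 and 0.712.

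Ctrc, which encodes chymotrypsinogen C, an activator and degrader of trypsinogens, was the member that followed least, with an r of 0.701. Its level ran from 7.47 CPM in βEedKO replicate 4 at 8 weeks to 4628 in βEedKO replicate 2 at 25 weeks, a ratio of 619, the widest of the 30. Relative to Ctrb1 of the same library, its reads made 1.41 to 9% in 9 libraries and 0.116 to 0.41% in the other 7. Prss2 made 23.8 to 55.5% of the Ctrb1 reads over the same libraries. Ctrc was therefore high or low beside a chymotrypsinogen that moved with everything else.

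The high and low libraries cut across genotype and age. At 8 weeks, Ctrc was 6.31, 2.3 and 0.41% of Ctrb1 in wild-type replicates 1, 3 and 4, and 4.15, 4.23 and 0.175% in heterozygous replicates 1, 2 and 3. In βEedKO replicates 1, 4 and 5 it was 6.54, 0.116 and 0.136%. At 25 weeks it was 4.7, 0.158 and 0.146% in wild-type replicates 2, 3 and 4, and 0.138 and 9% in heterozygous replicates 1 and 2. In βEedKO replicates 2 and 3 it was 4.47 and 1.41%. The replicates numbered 1 at 8 weeks, and those numbered 2 at 25 weeks, were high in all genotypes.

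In the annotation used here, the Ctrc model on chromosome 4 (141814962 to 141846359, minus strand) runs through the whole of Cela2a (141814962 to 141826160). Of the 50-base windows of its transcripts, 17.7% also stand in Cela2a transcripts, so reads could be assigned to either gene. In the 7 low libraries the Ctrc reads came to 0.26 to 1.35% of the Cela2a reads, and in the other 9 to 4.31 to 14.9%. Cela2a itself had an r of 0.988.

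**Figure D4:**
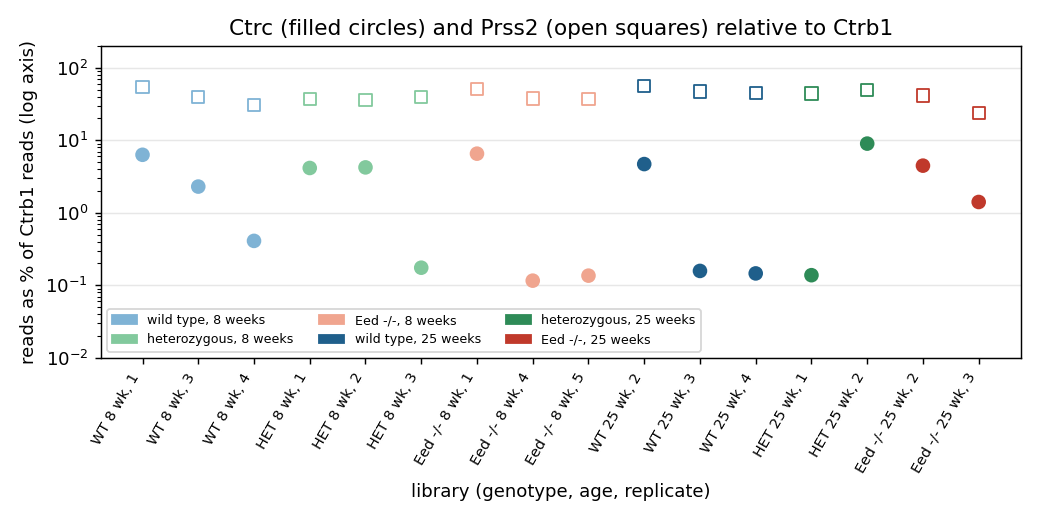
Reads of Ctrc (filled circles) and Prss2 (open squares) as a percentage of the Ctrb1 reads of the same library (y axis, log scale), for the 16 libraries (x axis) coloured by group. The Prss2 values keep to 23.8 to 55.5%, while Ctrc lies between 0.116 and 9%.

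The transcription factors followed the enzymes less tightly. Rbpjl, the acinar partner in the PTF1 trimer, came closest, with an r of 0.932 and a slope of 1.17. It ran from 3.03 CPM in βEedKO replicate 5 at 8 weeks to 180 in βEedKO replicate 2 at 25 weeks. Ptf1a, the bHLH subunit of the trimer, had an r of 0.892 and a slope of 0.693. It was scarce, with 0.381 CPM in heterozygous replicate 1 at 25 weeks, where it had 7 reads, a median of 1.38 and a highest level of 15 CPM in βEedKO replicate 2 at 25 weeks. It shares 35.4% of its windows with its antisense gene Ptf1aos, and without strand their reads cannot be told apart.

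Nr5a2, a nuclear receptor of acinar and other digestive cells, had an r of 0.915 and a slope of 0.621, and ran from 2.88 to 28.8 CPM. Bhlha15 followed least, with an r of 0.712, a Spearman rho of 0.465 and a slope of 0.325. Without the 2 farthest libraries its r was 0.458, and with library size alone 0.52. Among deviations from the group means it was 0.809.

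The levels of Bhlha15 show how flat it was. At 8 weeks it had 80.2, 60.2 and 62 CPM in wild-type replicates 1, 3 and 4, 68.8, 50.6 and 58.5 in heterozygous replicates 1, 2 and 3, and 33.9, 62.1 and 54.3 in βEedKO replicates 1, 4 and 5. At 25 weeks it had 52.8, 26.3 and 52.4 CPM in wild-type replicates 2, 3 and 4, 31 and 47.8 in the heterozygous pair and 141 and 25.1 in βEedKO replicates 2 and 3. Its whole range was 5.6-fold, the narrowest of the 30. Per 100000 reads of the 26 secreted proteins, there were 16.5 to 172 Bhlha15 reads, a 10.4-fold span, against a span of 5.1-fold for Ptf1a, 5.44-fold for Rbpjl and 5.05-fold for Nr5a2. The highest of these was in βEedKO replicate 4 at 8 weeks and the lowest in wild-type replicate 4 at 25 weeks.

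Amy1 came closest to the limit among the members that followed, with an r of 0.853 over 16 libraries and 0.74 without the 2 farthest. Heterozygous replicate 2 at 8 weeks had 62.1 CPM of Amy1, against 37 and 14.3 in the other 2 of its group, while its Ctrb1 was the lowest of that group at 12327. Amy1 shares 31.8% of its 50-base windows with Rnpc3, which it overlaps on the same strand, so its counts are uncertain. Amy2b, one of several amylase genes on chromosome 3, is a pseudogene in the annotation and shares 39.1% of its windows with Amy2a2. Its counts are likewise uncertain, and it followed with an r of 0.95.

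Try4 and Try5, trypsinogens of the chromosome 6 cluster, share 45.9 and 40.5% of their windows with each other, so reads may have been split between them. With any other gene they share 65.6 and 47.6%. Both followed, with r of 0.938 and 0.94. Relative to the other members and to their own medians, Try4 was 0.754 higher on the log2 scale in wild-type replicate 4 at 8 weeks and differed by -0.787 in wild-type replicate 2 at 25 weeks. Prss2, which shares 7.83% of its windows with other genes, had an r of 0.991. Try10 shares 40.8% of its windows with other genes and Cela3b 19.2% with Cela3a. The levels of both, including the low one of Try10, are therefore uncertain too. In all, 17 of the 30 genes shared no window of this length with another gene.

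Comparisons between genotypes asked whether the acinar genes differ when β cells lack Eed. By edgeR's quasi-likelihood test with Benjamini-Hochberg adjustment, none of the 30 was called at 8 weeks between βEedKO and wild type (lowest adjusted p 0.755), where 0.434% of all 18685 genes tested were. DESeq2 also called none, with 1.91% of all genes called, and no member had an unadjusted p under 0.05 in either. All 30 fold changes were below 0 on the log2 scale, with a median of -1.53, against 0.00388 for all genes. That median was -0.281 without wild-type replicate 1, the library with the highest acinar share of its age. Since the 30 genes move together from library to library, their signs are not independent.

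At 25 weeks the edgeR test again called none of the 30 between βEedKO and wild type (lowest adjusted p 0.447), where 6.6% of all genes tested were called. DESeq2 called none, with 10.3% of all genes called, and no member had an unadjusted p under 0.05 by either tool. The median log2 fold change of the members was 0.843, and 29 were above 0. It turned to -3.16 without βEedKO replicate 2, and was 1.77 without replicate 3. In 28 of the 30 genes replicate 2 exceeded all 3 wild-type libraries and replicate 3 was under all 3, a pattern found in 3.62% of 18828 genes. The exceptions were Ctrc and Amy2b.

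Single genes give the size of these differences and their errors. At 8 weeks the log2 fold change between βEedKO and wild type was -1.42 ± 1.11 (SE) for Ctrb1 with an adjusted p of 0.853 by edgeR, -1.52 ± 1.13 for Cpa1 (0.842) and -1.33 ± 1.12 for Pnlip (0.869). It was -2.07 ± 1.25 for Amy2b (0.775) and -1.56 ± 1.11 for Sycn (0.831). Among the transcription factors it was -0.421 ± 0.522 for Bhlha15 (0.937), -1.2 ± 0.944 for Ptf1a (0.856), -1.7 ± 1.29 for Rbpjl (0.848) and -1.26 ± 0.709 for Nr5a2 (0.755). Nr5a2 was the only member whose groups did not overlap, with 14.2, 6.28 and 4.55 CPM in wild type and 3.46, 3.56 and 3.29 in βEedKO islets, and 11.3% of all genes tested did not overlap.

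At 25 weeks the same comparison, with edgeR's adjusted p in parentheses, gave 1.00 ± 1.2 for Ctrb1 (0.712), 0.592 ± 1.23 for Cpa1 (0.847), 0.808 ± 1.22 for Pnlip (0.778) and 0.992 ± 1.2 for Sycn (0.716). Amy2b stood at -0.0516 ± 1.35 (0.989). Bhlha15 had 0.878 ± 0.577 (0.447), Ptf1a 1.47 ± 1.01 (0.473), Rbpjl 0.87 ± 1.38 (0.79) and Nr5a2 0.725 ± 0.765 (0.667). No member separated the groups, and 40.5% of all genes tested did.

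A single call arose when libraries of the same replicate number were paired. In the fit with the replicate block, which called 5.5% of all genes at 25 weeks, Ctrc was higher in βEedKO islets by 2.38 ± 0.261 (SE) on the log2 scale, with an adjusted p of 0.0186 by edgeR. Without the block its change was 2.88 ± 2.28 (adjusted p 0.542), and without βEedKO replicate 2 it was -2.44. The paired fold change rests on replicates 2 and 3, since wild-type replicate 4 has no partner. The ratio of Ctrc to Ctrb1 moved over the 16 libraries with other genes of chromosome 4, among them Zfp990 (r = 0.967) and Masp2 (r = 0.887), which were picked after their values were seen. Their part in this difference was not tested.

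The difference between the ages in the βEedKO effect was tested in the same fit. Its median over the members was 2.41, with 0 of 30 called by edgeR or DESeq2, where 0.198 and 1.98% of all genes were. No member had an unadjusted p under 0.05 by edgeR and 3 had by DESeq2. It turned to -1.64 without βEedKO replicate 2 at 25 weeks.

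The comparison of heterozygous with wild-type islets used a model of the 16 libraries together. At 8 weeks edgeR called 0 of the 30 members and 0.0% of all 18828 genes, and 2743 genes had an unadjusted p under 0.05, none of them a member. DESeq2 called 2.42% of all genes at this age, and no member. The members' median log2 fold change was -0.199, and 1.05 without wild-type replicate 1. At 25 weeks edgeR called no member and no gene, with 210 genes and no member at an unadjusted p under 0.05, and DESeq2 called 0.00643% of genes and no member. The median was -1.33, and -0.394 without wild-type replicate 4.

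Genes outside the list were searched for the same pattern. Among the 10 with the highest r were Cabp2 (0.994), 2210010C04Rik (0.99), Serpini2 (0.982), Hsd17b13 (0.982), Aqp12 (0.98), 1810053B23Rik (0.975), Tff2 (0.975), Erp27 (0.973) and Tmed6 (0.973), over 16 libraries. Serpini2 is a serine protease inhibitor of the pancreas, Aqp12 an acinar water channel relative and Erp27 a protein of the endoplasmic reticulum. Cabp2, a calcium-binding protein, ran from 1.74 to 55.4 CPM. Of a list of 20 other acinar genes, 15 reached 0.8, with a median of 0.947.

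Markers of other cell types had lower values. None of 8 endothelial, 8 macrophage, 7 stromal, 8 β cell and 5 α cell markers reached an r of 0.8, with medians from -0.207 to 0.117. Of 12 duct markers 1 did, Muc1 at 0.905, a mucin that ran from 6.99 to 78.1 CPM. The summed duct markers were 709 to 841 CPM in the βEedKO libraries at 25 weeks and 331 to 394 in wild type, and 4 of the 12 were called higher there, where 6.6% of all genes were called in either direction. The same test called 4 of 7 stromal markers, 1 of 8 macrophage markers and 1 of 5 α cell markers higher, and 7 of 8 β cell markers lower. The summed stromal markers were 247 to 370 CPM in these βEedKO libraries and 88 to 124 in wild type, and the macrophage markers 173 to 486 and 102 to 199. Spp1 alone made 468 and 316 CPM of the duct sum in βEedKO replicates 2 and 3 at 25 weeks. In wild-type replicates 2, 3 and 4 of that age it made 58.6, 28.4 and 55.4 CPM. The duct and stromal sums of both βEedKO libraries exceeded wild type at that age, while their acinar shares were the 2 extremes of the series. The part of these cells in the acinar levels was not tested.

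The 5 acinar genes that did not follow were the trypsinogens Prss1, Prss3, Gm5771 and Gm10334 and the amylase Amy2a5, with r of 0.211, 0.42, 0.184, 0.348 and 0.731. The 4 trypsinogens lie in the same cluster on chromosome 6 as Prss2 and Try4 and share 54.9 to 66.1% of their windows with other genes, so single values are uncertain. They were named after their values were seen.

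Gm5771 had 212, 124 and 193 CPM in wild-type replicates 1, 3 and 4 at 8 weeks, 10.2, 3.06 and 10.5 in the heterozygous and 3.56, 15.6 and 10.2 in the βEedKO libraries. At 25 weeks it had 1.09, 1.35 and 5.88 CPM in wild type and 1.09 and 6.3 in heterozygous islets. In the βEedKO replicates 2 and 3 it had 376 and 230, though Ctrb1 differed 24.4-fold between these 2 libraries. Wild-type islets at 8 weeks and βEedKO islets at 25 weeks were high, and the other groups were low.

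Prss1 was also highest in the βEedKO libraries at 25 weeks, with 231 and 165 CPM (3039 and 4082 reads), against 1.09, 0.226 and 1.47 CPM (5, 3 and 19 reads) in wild type of that age. At 8 weeks it had 8.56, 5.35 and 17.5 CPM in wild-type and 0.807, 1.25 and 1.56 in βEedKO islets. Heterozygous islets were uneven in Prss1, with 16.6 CPM in replicate 1 at 8 weeks and 9.7 in replicate 1 at 25 weeks, and under 1 in the other 3. As a share of Prss2, the sum of the 4 genes was 79.5% in βEedKO replicate 3 at 25 weeks, 3.51% in replicate 2 and 0.384 to 0.402% in wild type.

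By edgeR, the log2 fold change between βEedKO and wild type at 25 weeks was 7.72 ± 0.712 for Prss1 (adjusted p 0.000316), 6.64 ± 0.794 for Gm5771 (0.00137), 5.31 ± 0.709 for Gm10334 (0.00233) and 3.42 ± 0.732 for Prss3 (0.0214). These 4 were the only ones of the 20 other acinar genes called at that age, where 6.6% of all genes were. Without βEedKO replicate 2 the change of Prss3 was 2.57 (adjusted p 0.153), without wild-type replicates 2 or 3 it was 3.24 (0.0663) or 2.95 (0.0552), and the other 3 were called without any library. At 8 weeks the direction was the opposite, with -4.16 ± 0.681 for Gm5771 (adjusted p 0.0307 by edgeR, and 0.18 with the replicate block). Its adjusted p was above 0.05 when any 1 of 7 libraries was left out (each wild-type one, βEedKO replicates 4 and 5, and both βEedKO ones of 25 weeks), with changes from -4.68 to -4.03. Prss1, Gm10334 and Prss3 had -3.14, -3.41 and -3.57 at 8 weeks, with adjusted p of 0.0512, 0.0558 and 0.0728.

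**Figure D5:**
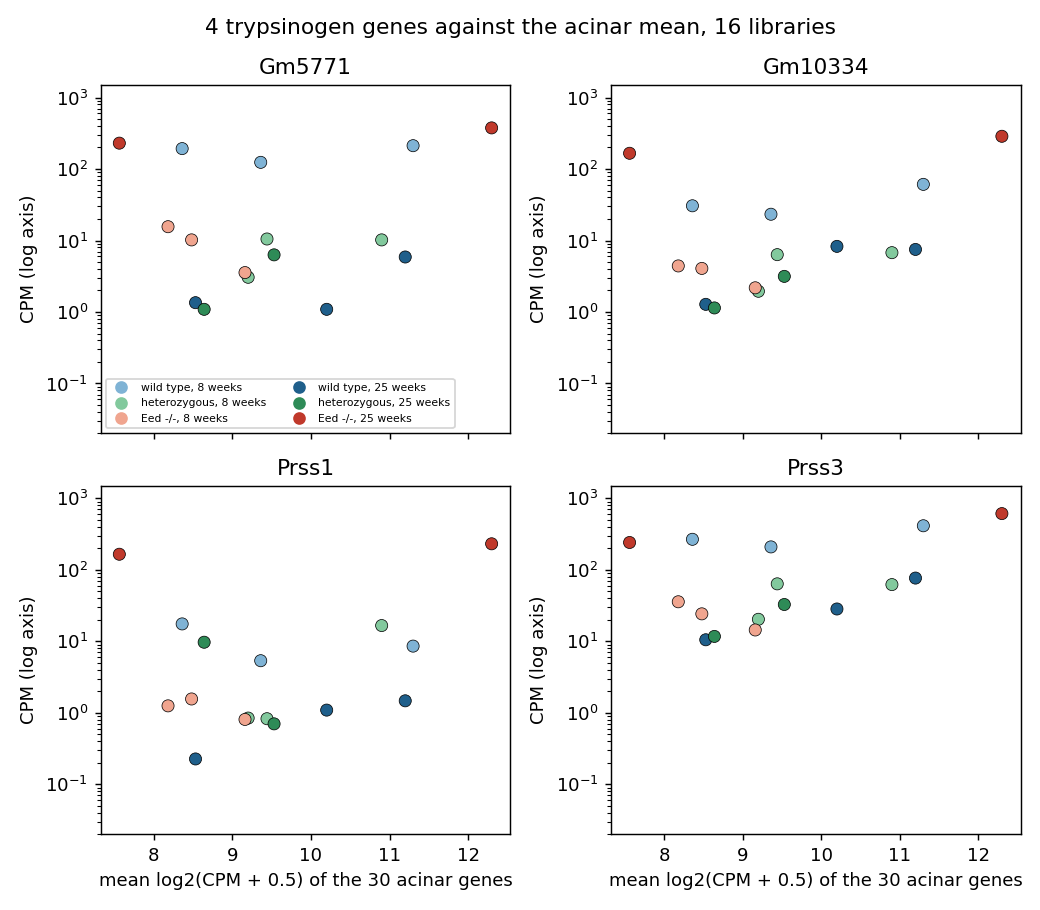
Level of 4 trypsinogen genes (y axis, CPM on a log scale) against the mean log2(CPM + 0.5) of the 30 acinar genes (x axis) in the 16 libraries, coloured by group. The 2 βEedKO libraries at 25 weeks lie at the far left and far right and are the 2 highest in Prss1, Gm5771 and Gm10334.

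The chromatin state at the start sites was read from the authors' segmentation of wild-type islets, which gives each 200-base bin a letter. It was made from other preparations than the RNA, with published data among them, and holds no level. The methods name islets as the source of its DNA methylation data, and the resource list names β cells. Part of its published ChIP-seq input was from female mice. Of the 30 start sites, 18 lay in Polycomb-repressed states (N to R), against 27.2% of 28877 genes. Bivalent states, which carry active and repressive marks, held 3, Cela1, Ptf1a and Rbpjl, all in state M. Active states held 5, Cela3b and Rnase1 (E), Ctrl (J), Amy1 (G) and Bhlha15 (A), where 43.1% of all genes lay. Try4 and Try5 lay in heterochromatin (T), and Cel and Zg16 in quiescent chromatin (X). The start site was the outermost annotated 5′ end of the gene. Zg16 has 1257 exon bases in a span from 127050156 to 127087328, and no RefSeq site was found for it. State O had the largest coverage over its gene body. For Pnlip the site used was 58652498 and the RefSeq site 58670365, both in state P.

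Bhlha15 was the only member with its start site in state A, an active state. That holds for the bin of the start site alone, since the bivalent state L had the largest coverage within 500 bases of it and over the gene body. The enzymes with Polycomb states included Ctrb1, Cela2a, Sycn, Clps, Pla2g1b and Ctrc in state O, and Prss2, Cpa1, Pnliprp1, Pnliprp2, Gp2 and Dmbt1 in state N with Nr5a2. Try10, Cpb1, Pnlip and Cuzd1 lay in state P and Amy2b in state Q.

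The RNA of these genes was measured in whole islets, without separating cell types. Whether the state and the RNA of a gene come from the same cells was not tested. In wild-type islets at 8 weeks the 18 genes with Polycomb states had a median of 1560 CPM, from 8.35 for Nr5a2 to 21767 for Ctrb1, where the median over all counted genes in such states was 0.0. Above 100 CPM stood 16 of the 18, and 52 of the 6264 counted genes of these states, among which the pseudogene Amy2b is not included. Genes of the active states had a median of 3370 CPM for the 5 members and 20 CPM overall. These states differed, with a median over all genes of 34.9 CPM in A, where Bhlha15 lay. It was 0.162 CPM in E, 0.222 in G and 0.111 in J, where the other active members lay. The median r with the other members was 0.987 in Polycomb states and 0.982 in active ones. With RefSeq start sites, 22 of 24 members had the same state, while Pla2g1b moved from O to the bivalent state K and Amy1 from G to K or Q. Nr5a2 is counted among the 22, although only 1 of its 2 RefSeq sites lay in N and the other in the bivalent state M.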

How the data were processed

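Bulk RNA-seq of mouse islets was analysed in 16 libraries of 6 groups. The counts the authors deposited are whole reads assigned to each gene, made with TopHat2 2.0.13 on GRCm38 and featureCounts (Subread 1.5.0-p1), per the submitters' processing notes, on Gencode M9 models, per the methods. Use of strand and of reads with several alignments is not given in the sources used here, and the kit does not mark strand. The authors deposited chromatin states as EpicSeg letters in bins of 200 bp, with replicates averaged, on autosomes. No count column was unused (0). The other data types of the series were not used here.

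Symbols, positions and start sites came from Gencode M21 on the same build, a later release. Of 47937 genes, 47224 matched by identifier. Counts were tested in R 4.3.3 with edgeR 4.0.16 (TMM, filterByExpr by group, quasi-likelihood F test, Benjamini-Hochberg over all genes, threshold 0.05), in 1 fit of 4 groups for wild type and βEedKO (11 libraries, 18685 genes, common biological coefficient of variation 0.456) and in 1 of 6 groups for heterozygous islets (18828 genes). DESeq2 1.42.0 was an alternative. A standard error is the log2 fold change over the square root of F. CPM are TMM scaled. Covariation, shares of counts, states and motifs (Python 3.11.15) carry no test. Libraries of a group are biological replicates per the methods, from single or pooled mice.

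Genes with full statistics are 1 gene of each role (Amy2b, not the more abundant Rnase1, for nuclease and amylases), the 4 transcription factors and any member called; outside the list, the 10 genes most like the members' mean, of which 1 is not reported here. Members, lists and tests were chosen with earlier results of these data known. Counting precision follows from 4645393 to 22925359 reads per library. Alternatives were library size alone, no filter, DESeq2, a replicate block, all 16 libraries, leaving out each library, other pseudocounts, and windows or RefSeq sites for states.

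Deviations from the group means correlated over 18828 genes between βEedKO and wild-type libraries of like number. At 8 weeks r was 0.533 (number 1) and 0.246 (number 4). At 25 weeks it was 0.236 (number 2) and 0.348 (number 3). The main fits had no replicate block, and blocked values are given where they change a call. The labels do not say what a number marks. At 8 weeks the unlike numbers 3 and 5 gave 0.526. With 2 βEedKO libraries at 25 weeks these values mirror each other. Heterozygous libraries had 0.137, 0.0558 and 0.133. Libraries of a group differed by more than counting noise in all cases. The model was tested on simulated data. In those data genes varied independently of each other, unlike the members here.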

Additional observations from a re-analysis of the deposited data

Results flagged for a closer look

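For 4 trypsinogen genes outside the 30 members, the difference between βEedKO and wild type itself differed between the ages, by the test of that difference in edgeR's fit of 11 libraries. On the log2 scale, 25 minus 8 weeks, it was 10.8 for Gm5771 (adjusted p 0.00466), 10.9 for Prss1 (0.00373), 8.72 for Gm10334 (0.00579) and 6.99 for Prss3 (0.0273). All 3 wild-type libraries at 8 weeks lay above all 3 βEedKO libraries, and both βEedKO libraries at 25 weeks above all 3 wild-type ones, in each of the 4 genes. Over all genes tested, 11.3% did not overlap at 8 weeks and 40.5% at 25 weeks, and the 4 genes were named after their values were seen. With the replicate block the differences were 12.4, 12.1, 9.69 and 8.28 in the same order, larger than without it, with adjusted p of 0.0611, 0.0241, 0.0929 and 0.0611, so that only the call of Prss1 held. That of Prss3 was also lost without any 1 of 8 of the 11 libraries, with values from 6.14 to 7.49. Where 1 gene's reads also match its neighbours, the 4 values are not independent. No member of the 30 met this test. Heterozygous islets at 8 weeks were below wild type in these genes as well, in edgeR's fit of 16 libraries. The log2 fold change was -4.49 for Gm5771 (adjusted p 0.197), -0.804 for Prss1 (0.716), -2.94 for Gm10334 (0.212) and -2.61 for Prss3 (0.223). These groups overlapped in Prss1 and not in the others, and 19.3% of all genes tested did not overlap. Groups of 2 or 3 libraries are too small for the test of single outlying libraries.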

How the results depend on the processing

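The count of members called stayed at 0 under every alternative run, other than 1 with the replicate block at 25 weeks (Ctrc). Leaving out 1 library, it was 0 in all 5 comparisons. The median log2 fold change ran from -1.96 to -0.281 at 8 weeks, -3.16 to 1.78 at 25 weeks and -1.64 to 3.36 for the difference between ages, and for heterozygous islets from -0.846 to 1.05 and -1.77 to -0.394. With the replicate block the heterozygous median at 8 weeks was 0.00843. At 25 weeks, leaving out 1 library, the change ran from -2.7 to 2.06 for Ctrb1, -3.54 to 1.54 for Cpa1, -3.37 to 1.76 for Pnlip, -2.86 to 1.93 for Sycn, -0.875 to 1.64 for Bhlha15, -1.98 to 2.4 for Ptf1a, -2.99 to 2.27 for Rbpjl, -1.33 to 1.53 for Nr5a2 and -2.44 to 5.68 for Ctrc, each lowest, and below 0, without βEedKO replicate 2. Amy2b ran from -4.05 to 0.891, and was 0.88 and 0.891 without wild-type replicate 4 or βEedKO replicate 3. At 8 weeks Rbpjl ran from -2.81 to 0.221 and Ctrc from -6.69 to 0.0684, both highest without wild-type replicate 1. The cause was not tested. The number of members with an r of 0.8 or more was 26 without the 2 farthest libraries, 29 among deviations from group means and 27 to 28 leaving out 1 library, with a median r of 0.979 to 0.986. Per TMM-scaled counts the highest and lowest acinar shares were 60.5 and 1.88%. Active start sites numbered 4 by windows and 4 by RefSeq. Over all genes, calls at 8 weeks were 81 by edgeR, 378 by DESeq2 and 0 with the block, at 25 weeks 1234, 2049 and 1027, and for the difference between ages 37, 333 and 2. At 8 weeks Prss1, Gm10334 and Prss3 passed the threshold by DESeq2, without the filter and with library size alone.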

Other observations

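The pattern of Ctrc relative to Ctrb1 was followed into other genes, a choice made after its values were seen. Among 18828 genes tested, leaving out Ctrc and Ctrb1, 4 of the 10 with the largest absolute r with log2 Ctrc minus log2 Ctrb1 over 16 libraries lay on chromosome 4, which holds 6.09% of these genes. They were Zfp990 (r = 0.967, from 145510759 to 145539188), Masp2 (0.887, from 148602554 to 148615499), Lrrc38 (0.879, from 143349757 to 143371032) and Znf41-ps, which ran the other way (-0.88, from 145825237 to 145829942). Ctrc starts at 141846359 on the same chromosome, and the positions are those of GRCm38. The other 6 lay on 6 other chromosomes.

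Zfp990, a zinc finger gene, shows it most plainly. It had 3.93, 3.78 and 1.32 CPM in wild-type replicates 1, 3 and 4 at 8 weeks, 4.6, 4.84 and 0.207 in the heterozygous and 9.35, 0.0502 and 0.173 in the βEedKO libraries. At 25 weeks it had 9.38, 0.0 and 0.0 CPM in wild-type replicates 2, 3 and 4, 0.218 and 8.46 in the heterozygous and 4.87 and 5.09 in the βEedKO libraries. The 7 libraries with the lowest Ctrc share were the 7 lowest in Zfp990.

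Bhlha15, the other member that did not follow, was most like Rrbp1 (r = 0.919), Dap (0.891), Adk (0.874), Trabd (0.871) and Mcfd2 (0.871) over the 16 libraries. Rrbp1 is a ribosome-binding protein of the rough endoplasmic reticulum and Mcfd2 a cargo receptor of the early secretory path. The levels of Rrbp1 ran from 218 to 421 CPM.

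Casp9 overlaps Cela2a by 1015 bases on the opposite strand. It had an r of 0.759 with the members, and 123 CPM in βEedKO replicate 2 at 25 weeks against 9.28 to 39.4 in the other 15 libraries. Without strand, reads of this overlap cannot be assigned to either gene.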
